A study of Mus musculus with 6 samples.

Results

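The expression of 9 genes, out of 23276 gene symbols in the deposited transcript table, was described in mouse polycystic kidneys. Mutation of these genes causes polycystic kidney or liver disease, or their products regulate cyst formation. They were chosen by name, as every transcript assigned to *Pkd1*, *Pkd2*, *Pkhd1*, *Ganab*, *Dnajb11*, *Prkcsh*, *Sec63*, *Bicc1* or *Glis3*, which gave 26 transcripts. Total kidney RNA of 6 mice at post-natal day 22 was sequenced. The 3 mice named SKO (single knockout) carried Ksp/Cre with *Pkd1* F/RC, that is, 1 floxed *Pkd1* allele and 1 allele with the RC hypomorphic point mutation. The 3 mice named DKO (double knockout) carried the same alleles and were homozygous for a floxed miR-17∼92 cluster. All 6 kidneys therefore shared the *Pkd1* mutation and the Cre recombinase, which the Ksp (*Cdh16*) promoter drives in tubule epithelium only, so that cells outside the tubules are not expected to recombine the floxed alleles. The study's text gives a slightly younger age than the labels.

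The value described for each transcript is the authors' mean abundance over all libraries in CPM, read counts scaled to the size of the library, on a log2 scale where stated. It is 1 number for the 6 kidneys together. No level for a single kidney and no depth of a single library could be read, so the levels have no SD, the order of neighbouring genes could not be tested, and SKO and DKO kidneys were not compared. Because whole kidney was used, fewer cells of a type and less RNA per cell cannot be told apart in these levels.

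Polycystin-1, the product of *Pkd1*, is a very large membrane receptor that forms a complex in the primary cilium with polycystin-2, a cation channel encoded by *Pkd2*. Mutations of either gene cause autosomal dominant polycystic kidney disease, and mutations of *Pkhd1*, which encodes the ciliary membrane protein fibrocystin, cause the recessive form. The polycystins are folded and glycosylated in the endoplasmic reticulum (ER), where glucosidase II (*Ganab* and *Prkcsh*), the co-chaperone *Dnajb11* and the translocon component *Sec63* act, and loss of these genes gives dominant polycystic liver or kidney disease. *Bicc1* encodes an RNA-binding protein and *Glis3* a zinc finger transcription factor, and mice lacking either develop kidney cysts. miRNAs of the miR-17∼92 cluster repress mRNAs by pairing of their seed, bases 2 to 8, with the 3′-UTR.

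The mature miRNAs of the cluster are shown because the cluster is the gene in which the groups differed. Their sequences are from RefSeq (GRCm38.p6, chromosome 14, forward strand), written 5′ to 3′ with the seed in capitals. The 6 miRNAs fall into 4 seed groups, since miR-17-5p and miR-20a-5p share a seed, as do miR-19a-3p and miR-19b-3p.
miR-17-5p: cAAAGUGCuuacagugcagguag
miR-20a-5p: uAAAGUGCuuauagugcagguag
miR-18a-5p: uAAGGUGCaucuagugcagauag
miR-19a-3p: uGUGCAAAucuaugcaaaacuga
miR-19b-3p: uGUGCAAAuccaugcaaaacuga
miR-92a-3p: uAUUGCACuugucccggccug

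The 3′-UTRs of the 9 genes were searched on the sense strand for the bases that pair with each seed, in the GENCODE transcript matched to the RefSeq mRNA. A match to the shared miR-17 and miR-20a seed, GCACTTT, was present once each in *Pkd1*, *Pkd2*, *Sec63*, *Bicc1* and *Glis3*, or 5 of the 9 genes. It was found in 11.1% of the 18835 3′-UTRs of all genes. No GCACTTT was found in the 3′-UTRs of *Pkhd1*, *Ganab*, *Dnajb11* and *Prkcsh*, whose lengths of 519, 938, 653 and 315 nucleotides are the 4 shortest of the 9. Longer 3′-UTRs hold more matches in general. Among all 3′-UTRs with a length within 1.2 times that of the gene, the share holding GCACTTT was 9.02% for the length of *Pkd1*, 18.8% for *Pkd2*, 22.1% for *Bicc1*, 30.0% for *Sec63* and 33.1% for *Glis3*.

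The matches are printed in the direction of the mRNA, with the bases that pair with the seed in capitals, 12 bases before them and 1 base after. In *Pkd1*, *Pkd2* and *Bicc1* the match is followed by an A, which makes it the 8-base form that 3.30% of all 3′-UTRs hold. Among 3′-UTRs within 1.2 times the length of the gene, the share was 2.46% for *Pkd1*, 5.07% for *Pkd2* and 6.57% for *Bicc1*. All are in the 3′-UTR of the gene's RefSeq transcript in GRCm38, the assembly also known as mm10.
*Pkd1* (chr17:24595720-24595739, forward strand): tatggggcttctGCACTTTa
*Pkd2* (chr5:104503809-104503828, forward strand): ttataattttctGCACTTTa
*Bicc1* (chr10:70924747-70924766, reverse strand): tgaggtcttccaGCACTTTa
*Sec63* (chr10:42829879-42829898, forward strand): catacaaaggagGCACTTTt
*Glis3* (chr19:28259543-28259562, reverse strand): tgctgacataaaGCACTTTg

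A match to the miR-19 seed, TTTGCAC, was found in *Sec63* and *Glis3*, the 2 genes with the longest 3′-UTRs of the 9. It is present in 10.1% of all 3′-UTRs, and in 25.3% and 29.3% of those within 1.2 times the length of *Sec63* and *Glis3*. In *Sec63* it starts at position 23 of the 3′-UTR and is followed by an A, and in *Glis3* it starts at position 167.
*Sec63* (chr10:42829045-42829064, forward strand): tggactacagcgTTTGCACa
*Glis3* (chr19:28262805-28262824, reverse strand): ctttcagaaattTTTGCACc
None of the 9 3′-UTRs held the match to miR-18a (GCACCTT) or to miR-92a (GTGCAAT), which 7.22% and 5.99% of all 3′-UTRs hold. These matches describe the sequence, and no effect of the cluster on the 9 genes was measured here.

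**Figure D1:**
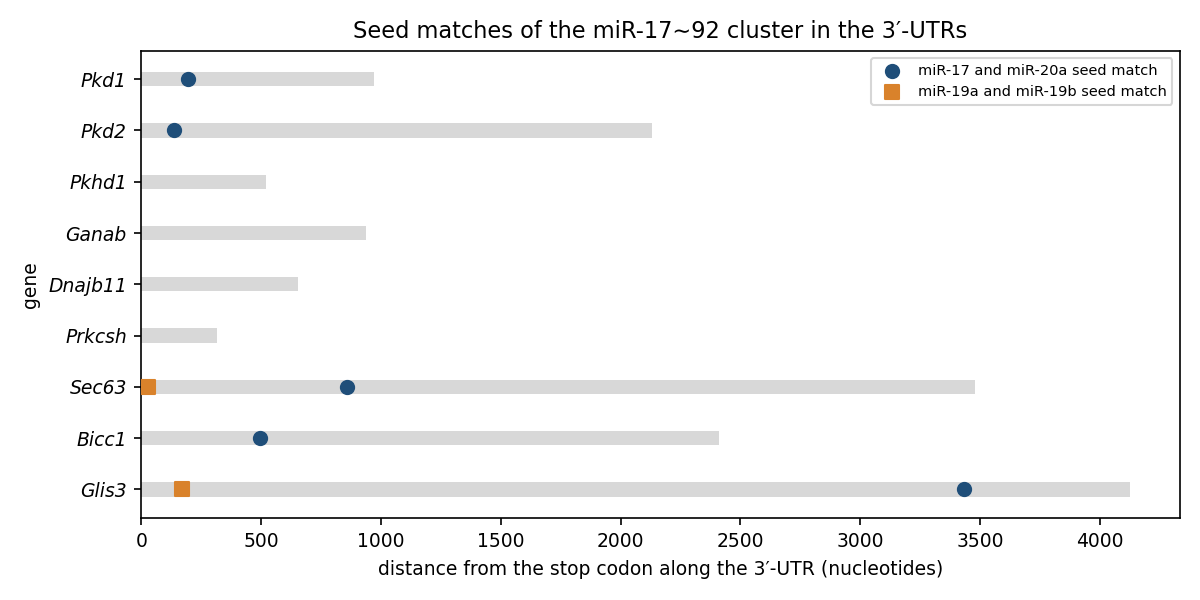
Seed matches along the 3′-UTRs of the 9 genes. Grey bars show the length of each 3′-UTR in nucleotides from the stop codon, circles the matches to the miR-17 and miR-20a seed and squares the matches to the miR-19 seed. The match of *Pkd2* starts at position 133 of 2131 and that of *Pkd1* at position 193 of 969, whereas that of *Glis3* starts at position 3429 of 4128.

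The polycystins differed in level. *Pkd1* lies on the forward strand of chromosome 17 (24549834 to 24596508) and its RefSeq transcript has 46 exons and 14164 nucleotides. Its 3 transcripts had means of 31.8, 31.8 and 31.7 CPM, which is 4.99 on the log2 scale. The RefSeq transcript and 1 assembled transcript had the same value to every digit given. *Pkd2* (chromosome 5, 104459450 to 104505819, forward strand, 15 exons) was listed with a single transcript, at a mean log2 CPM of 6.62 or 98.1 CPM. Since a longer transcript collects more reads, levels of different genes are set side by side per kilobase of the RefSeq transcript. On that scale *Pkd1* had 2.25 CPM per kb and *Pkd2* 18.8 CPM per kb, a ratio of 8.37. *Pkd1* was the lowest of the 9 genes per kb. It was above 57.2% of the 20073 genes that could be given a length, and *Pkd2* was above 92.7% of them. These 20073 genes include genes under 1 CPM, and shares per kb among genes with at least 1 CPM were not computed.

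The floxed part of *Pkd1*, exons 2 to 4 (chromosome 17, 24564150 to 24564748), covers 314 of the 14164 nucleotides of the transcript, or 2.22%. These exons are therefore a small part of a count over the whole transcript, and the second allele carries a point mutation that leaves them in place. The pooled level is no check of the deletion, since all kidneys carried Cre. Whether the deletion changed the level of the whole transcript was not tested. In addition, 693 exonic bases of *Pkd1* lie within *Tsc2*, the tuberous sclerosis gene on the opposite strand, which had a mean of 25.6 CPM. The libraries were strand-specific, but whether strand was used in counting is not given in the sources used here.

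*Pkhd1* (chromosome 1, 20057779 to 20618064, reverse strand) spans 67 exons. Of its 5 transcripts, the RefSeq one had 125.4 CPM and the assembled ones had 130.0, 129.6, 71.3 and 47.1 CPM. The highest and lowest differed 2.76-fold, the widest spread within any of the 9 genes. Per kb, its RefSeq transcript of 12935 nucleotides had 9.70 CPM, 4.32 times the value of *Pkd1*. Thus the gene with the largest share of reads among the 9 RefSeq transcripts ranked 7 of 9 in level per kb.

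The 4 ER genes had levels per kb within 1.84-fold of each other. *Ganab*, the catalytic α subunit of glucosidase II (chromosome 19, 8898071 to 8916672, forward strand), had the highest level of the 9 genes at 22.2 CPM per kb, above 93.9% of genes. Its 4 transcripts were close to each other, from 78.8 to 85.6 CPM. *Prkcsh*, the β subunit that holds the enzyme in the ER (chromosome 9, 22002806 to 22014222, forward strand), had 1 transcript at 31.1 CPM or 15.5 CPM per kb. In share of reads *Ganab* was 2.75 times *Prkcsh*, and per kb the ratio of these subunits was 1.43. *Dnajb11*, an ER co-chaperone of the Hsp40 family (chromosome 16, 22857845 to 22879634, forward strand), was listed with 3 RefSeq transcripts at 38.7, 33.6 and 30.6 CPM. The highest had 20.1 CPM per kb. *Sec63*, which couples the ER chaperone BiP to the translocon (chromosome 10, 42761496 to 42832514, forward strand), had 72.8 CPM for its RefSeq transcript and 70.7 CPM for an assembled one, and 12.1 CPM per kb.

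In both regulators the transcript with the highest CPM was an assembled one, well above the RefSeq transcript in share of reads. For *Bicc1* (chromosome 10, 70922832 to 71159700, reverse strand) the RefSeq transcript had 107.2 CPM, whereas the 3 assembled transcripts had 194.6, 148.0 and 102.4 CPM. For *Glis3* (chromosome 19, 28258851 to 28680077, reverse strand) the RefSeq transcript had 21.8 CPM, and both assembled transcripts were higher, at 51.2 and 50.9 CPM. The highest assembled transcript exceeded the RefSeq one 2.35-fold for *Glis3* and 1.81-fold for *Bicc1*, against 1.04-fold for *Pkhd1*. The lengths of assembled transcripts were not read, so a higher CPM here need not mean a higher level per kb. The levels per kb of 19.7 for *Bicc1* and 2.90 for *Glis3* rest on the RefSeq transcripts. Antisense genes of the GENCODE annotation overlap exons of both, with 2808 bases of *Bicc1* exons within *4930533K18Rik* and 482 bases of *Glis3* exons within *D930032P07Rik*. *D930032P07Rik* had a mean of only 0.0736 CPM, and *4930533K18Rik* was not found under that name among the gene symbols. Genes on the opposite strand also overlap 1226 exon bases of *Pkhd1* (*4930486I03Rik*, 0.0278 CPM) and 293 of *Sec63* (*Gm26860*, not found under that name). Overlaps were counted over the whole body of the other gene, introns included.

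**Figure D2:**
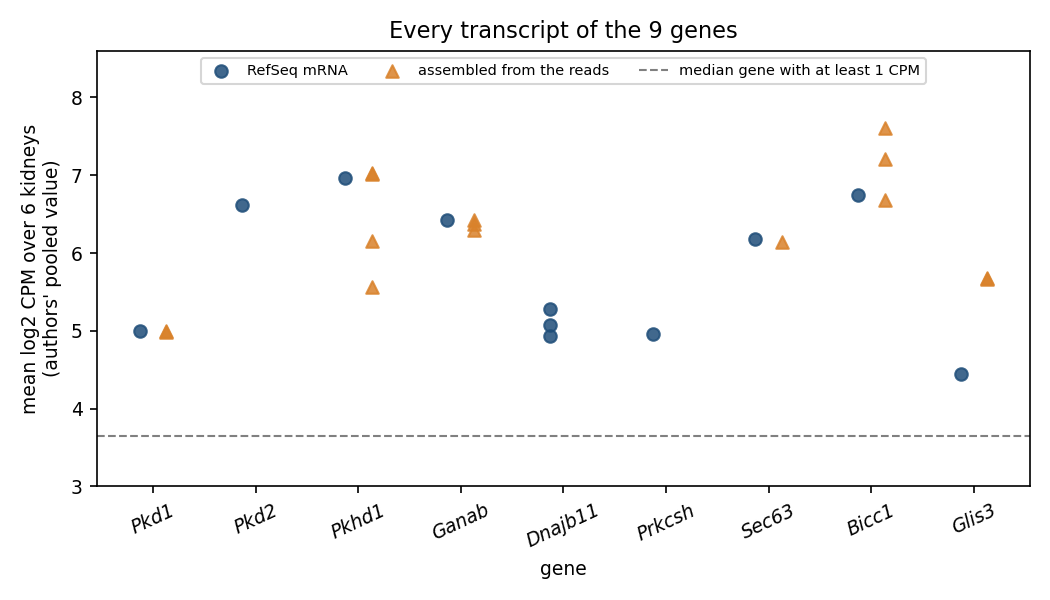
Mean log2 CPM of all 26 transcripts, by gene. Circles are RefSeq mRNAs, triangles are transcripts assembled from the reads, and the dashed line is the median (3.65) of the 13001 genes that reached 1 CPM. Every transcript lies above that line, from 4.45 (*Glis3*) to 7.60 (*Bicc1*).

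Transcripts of a gene share exons and therefore reads, so their values are not separate amounts of RNA. Over the 8469 genes with several transcripts and at least 1 CPM, the highest and lowest transcripts differed by a median of 1.12-fold. *Pkhd1*, *Glis3*, *Bicc1* and *Dnajb11* (1.27-fold) lay above this median, and *Ganab* (1.09-fold), *Sec63* (1.03-fold) and *Pkd1*, whose transcripts were almost equal, lay below it. Equal values of the kind seen in *Pkd1* occurred in 18.8% of the 9684 genes with several detected transcripts. Of the 7 genes among the 9 with several transcripts, an assembled one was the highest in 3 (*Pkhd1*, *Bicc1* and *Glis3*) and tied with the RefSeq one in *Pkd1*. This is near the general share, since an assembled transcript was the highest in 40.2% of the 8469 genes, counting ties as RefSeq.

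**Figure D3:**
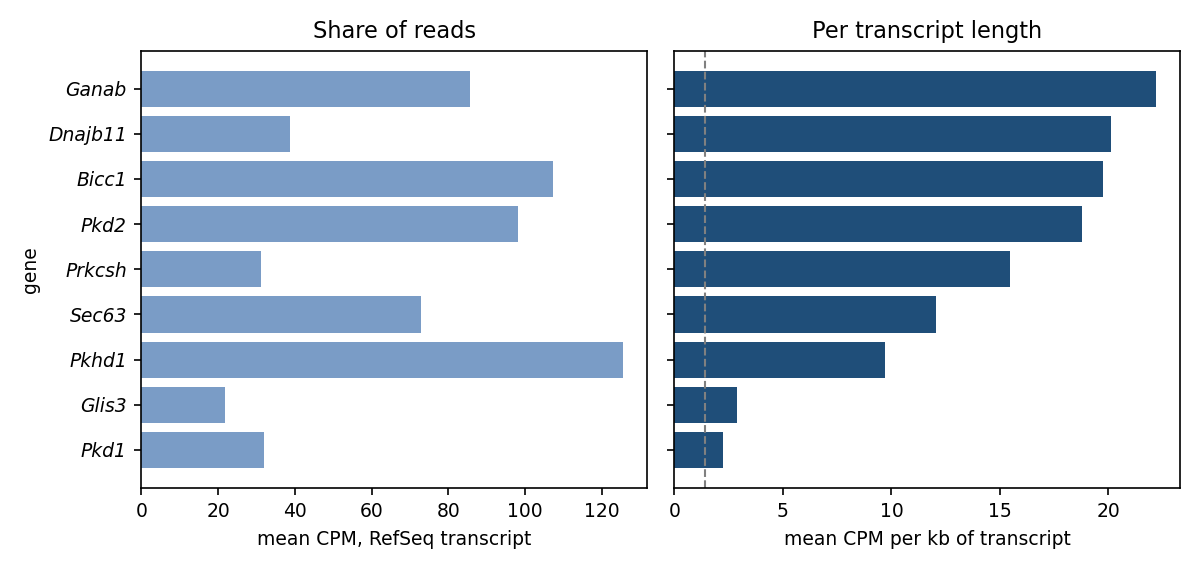
Mean CPM of the RefSeq transcript of each gene (left) and the same value per kb of transcript (right), with genes ordered by the right panel. Bars are the authors' pooled values for 6 kidneys and have no error. The dashed line is the median of 20073 genes (1.42 CPM per kb), which include genes under 1 CPM. All 9 genes exceed it, from 2.25 (*Pkd1*) to 22.2 (*Ganab*).

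Per kb, the order was *Ganab*, *Dnajb11*, *Bicc1*, *Pkd2*, *Prkcsh*, *Sec63*, *Pkhd1*, *Glis3* and *Pkd1*, with a median of 15.5 CPM per kb. The first 4 were between 18.8 and 22.2, and neighbours from *Ganab* to *Pkhd1* differed by at most 1.28-fold. The place of *Dnajb11* depended on the length taken, since with that of its longest RefSeq transcript it had place 5 instead of 2. The widest step between neighbours, 3.34-fold, lay between *Pkhd1* and *Glis3*. The 5 genes with a miR-17 seed match had 2.25 to 19.7 CPM per kb and the 4 without one 9.70 to 22.2. These ranges overlapped, although *Pkd1* and *Glis3*, the lowest, hold a match and *Ganab* and *Dnajb11*, the highest, do not. Levels of different genes pooled over SKO and DKO kidneys cannot show whether a match matters, and this was not tested.

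Related genes from fixed lists were described on the same scale. The other polycystin family members were almost undetected. Of 6 listed, 5 were found, and all 5 had a mean under 1 CPM, from 0.00843 CPM per kb for *Pkd1l2* to 0.0514 for *Pkd2l2*. Before division by length they had 0.0392 to 0.195 CPM, not far above the lowest mean of any transcript (0.0263 CPM). Their order per kb is therefore not interpreted. *Pkd1l1* was searched for by its symbol and synonyms and was not found among the gene symbols, so it has no level. By contrast, all 15 genes of ER folding, glycosylation and translocation had at least 1 CPM. Their median of 16.3 CPM per kb was close to that of the 9 genes, and 7 of them were above all 9, the highest being calreticulin (*Calr*, 154.3). *Hspa5*, which encodes BiP, the chaperone that works with *Dnajb11* and *Sec63*, had 88.2 CPM per kb. The translocon genes *Sec62* and *Sec61a1* had 38.1 and 16.3, against 12.1 for *Sec63*. *Mogs*, the glucosidase that acts just before glucosidase II, had 3.10, and *Alg6*, a glucosyltransferase, was the lowest of this list at 1.41.

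The other 18 genes of cystic kidney or liver disease also all had at least 1 CPM, but their median was lower, at 3.21 CPM per kb. Of these, 7 lay below all 9 genes, the lowest being the nephronophthisis gene *Nphp4* at 0.261. Uromodulin (*Umod*, 374.4) and the collagen gene *Col4a1* (71.1) were the 2 above all 9.

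**Figure D4:**
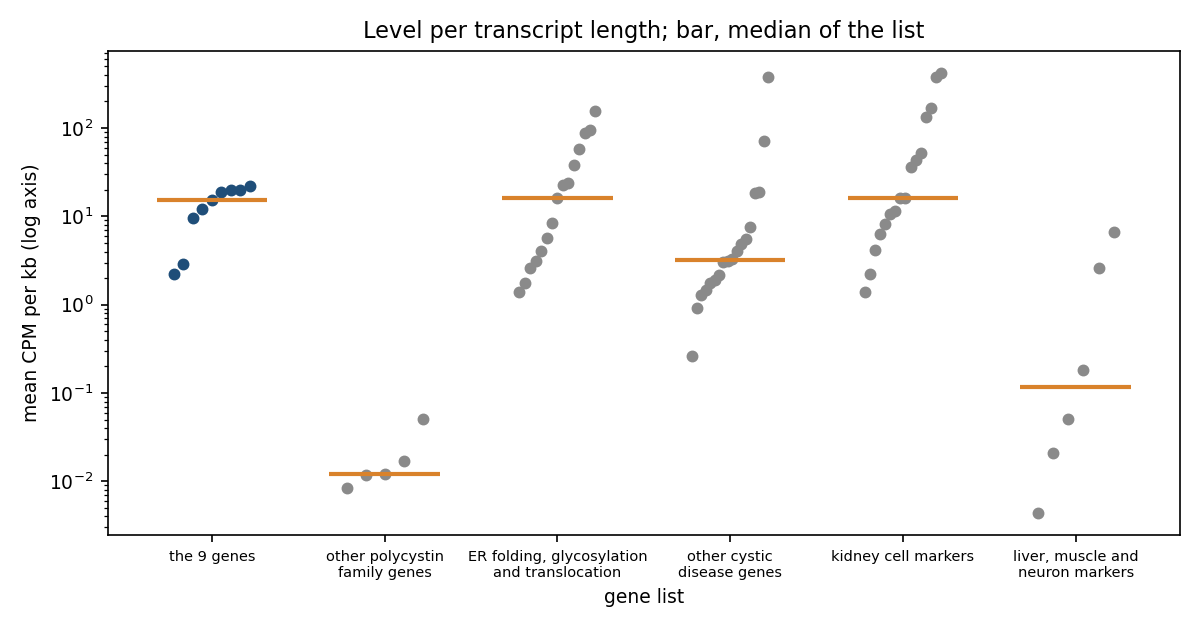
Mean CPM per kb on a log axis for the 9 genes, 3 lists of related genes and markers of kidney and other cell types. Points are genes and orange bars are medians. The 9 genes span 2.25 to 22.2, whereas the other polycystin family genes all lie under 0.1.

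Markers of every listed kidney cell type were present, each of them with at least 1 CPM. *Slc34a1* of the proximal tubule was the highest marker at 423.1 CPM per kb, *Slc12a1* of the thick ascending limb had 132.5 and *Slc12a3* of the distal convoluted tubule 43.0. *Aqp2* of the collecting duct had 52.2. *Cdh16*, whose promoter drives the Cre, had 167.2 and is expressed along the tubule, so it marks no single segment although it was listed with the collecting duct. Genes of podocytes (*Nphs1*, 2.22), endothelium (*Kdr*, 4.15), macrophages (*Adgre1*, 1.39) and fibroblasts (*Col1a1*, 16.3) were detected as well, so RNA of cells outside the tubules was included, and its part in the levels of the 9 genes was not tested. The liver markers *Alb* and *Apoa2* had 6.58 and 2.58 CPM per kb. Of the skeletal muscle markers, *Myh4* was at the lowest mean of the table and *Ckm* had 0.0209 CPM per kb. The neuronal markers *Rbfox3* and *Syt1* had 0.182 and 0.0502.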

How the data were processed

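Strand-specific libraries of total kidney RNA were sequenced as single-end reads. According to the study's methods and the submitters' processing notes, reads were trimmed and mapped to mm10 with TopHat2 2.0.12 and the iGenomes annotation. Alignments of low mapping quality were discarded. The authors' notes also name Cufflinks, featureCounts of Subread 1.4.6 and edgeR 3.2.4. The authors' deposited log2 values are a mean log2 CPM for each of 54721 transcripts, of which 4617 are at the lowest mean, -5.25. The other columns hold the authors' own comparison of DKO with SKO (fold change, test statistic, p-value and adjusted p-value) and were not used. The depth per library is unknown. A test on counts was planned and could not be run, because there is no column for a single kidney. No p-value is therefore given.

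CPM was 2 to the power of the deposited value. The transcript with the highest mean stood for its gene, and on a tie the RefSeq one. Percentiles of CPM per kb used the highest RefSeq mRNA and its length in GENCODE M21 (GRCm38), matched by accession without version for 20073 of 20470 genes. The 3′-UTRs come from the same annotation. Code was tested on simulated data (Python 3.11.15, pandas 2.3.3, numpy 2.4.6, matplotlib 3.10.9). The 9 genes and all lists were chosen with earlier results of these data known. All 9 genes are named, and from each list the highest and the lowest gene and the direct partners *Hspa5*, *Sec61a1*, *Sec62* and *Mogs*. *Pkd1l1*, *Col4a1*, *Cdh16* and the markers between the ends were named after the results were seen.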

Additional observations from a re-analysis of the deposited data

How the results depend on the processing

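The levels have no replicate error, so a value is counted as moved when it differed as printed. The median of the 9 genes was 72.8 CPM. It was 124 CPM with the sum over a gene's transcripts, which counts shared reads more than once, and 71.7 CPM with their median, and did not move with RefSeq mRNAs alone. Single genes moved in 7 of 9 cases with the sum, 6 with the median and 3 with RefSeq mRNAs alone (*Pkhd1*, *Bicc1* and *Glis3*). All 7 moved over 1.5-fold with the sum, among them *Pkd1* from 31.8 to 95.4 CPM and *Pkhd1* from 130.0 to 503.4 CPM, and *Pkd2*, with 1 transcript, went from place 3 to place 7 in share of reads. *Bicc1* was 127.6 CPM with the median and 107.2 CPM with its RefSeq mRNA, against 194.6 CPM, and *Glis3* was 21.8 CPM against 51.2 CPM with RefSeq mRNAs alone. In share of reads, not corrected for length, the median gene of the 9 was above 95.8% of all gene symbols, and above 92.5% of those with at least 1 CPM. With the longest RefSeq transcript the median per kb was 15.4 instead of 15.5, since *Dnajb11* fell to 15.4.

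Other forms of seed match were chosen after seeing the data. When an A had to follow, 3 of the 9 genes held the miR-17 match and 1 the miR-19 match (3.30% and 4.51% of all 3′-UTRs). With bases 2 to 7 followed by an A, 4 held the miR-17 match, 1 the miR-19 match and 1 (*Sec63*) the miR-92a match. These are present in 10.4%, 10.1% and 7.92% of all 3′-UTRs, so the single miR-19 and miR-92a genes are near the general share. *Sec63* held both single matches, and 3′-UTRs within 1.2 times its length held them in 27.3% and 18.8%. Its 8-base miR-19 match was held by 12.1% of them. For the 4 miR-17 genes, the share at the gene's length ran from 9.21% (*Pkd1*) to 32.1% (*Glis3*). No paired analysis was possible because there is no value for a single kidney. DESeq2, no filter on low counts and leaving out each kidney were not run for the same reason.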
